A study of Mus musculus with 16 samples.

Results

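Dopamine and noradrenaline are the catecholamine transmitters of the brain, and the genes described here make them, carry them and receive dopamine at the cell surface. The set was fixed by name as 9 genes: Th and Dbh (synthesis), Slc6a3 and Slc18a2 (transport), Drd1 and Drd5 (D1-like receptors), and Drd2, Drd3 and Drd4 (D2-like receptors). A probe set, the unit of these arrays, was a member when the platform annotation gave it one of these genes as its single symbol (Drd1 also in its older spelling Drd1a). This found 12 of the 45101 probe sets on the array, for 8 of the 9 genes, among 18194 genes named in this way. Drd5 had no probe set with it as the single symbol and is not analysed here.

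RNA of the cerebellum (Cb) and of the rest of the brain (Br) was profiled on Affymetrix arrays, for females and males and for WT and SINE KO, with 2 arrays for each of the 8 combinations, 16 in all. The mice were C57BL/6J. The SINE KO mice were homozygous for a small CRISPR deletion placed just after the start codon of a brain isoform of Ppargc1a that contains an exon from a short interspersed nuclear element (SINE), and came from 1 founder line. The WT mice were their age-matched littermates, with the age not given, and no group was treated. Brain stem remnants were removed by gross dissection before the brain was split, and the labels leave unsaid whether Cb and Br arrays with matching replicate numbers were made from 1 animal. The study asked how loss of this isoform changes expression in the cerebellum, with the rest of the brain as a control.

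The deposited values are not intensities. Each is 1 of 5 levels, here read as detection calls: level 2 as detected, level 1 as marginal and level 0 or below as not detected. No source states this reading. A call says whether a transcript was found and carries no level, so a gene detected on every array can still differ in amount between groups. In bulk tissue, fewer cells of a type and less RNA per cell cannot be told apart. Per array, 25517 to 28155 probe sets were detected, and 24.99% of all probe sets were detected on some arrays but not on others. All 5 probe sets of Ppargc1a were detected on all 16 arrays, which does not check the genotype, since the deletion removes few bases of 1 alternative exon. The methods call the specimens of a group independent. The main exact tests count arrays and treat them as interchangeable, across sex and the factor not compared. Cb and Br arrays may share animals, so these p-values do not measure a spread between animals.

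As background, tyrosine hydroxylase (Th) makes L-DOPA from tyrosine, the rate-limiting step, aromatic L-amino acid decarboxylase (Ddc) turns it into dopamine, and dopamine beta-hydroxylase (Dbh) converts dopamine to noradrenaline. Dopamine neurons lie mainly in the ventral midbrain and project to the striatum. Noradrenaline neurons lie in the brain stem, above all in the locus coeruleus, and send fibres into the cerebellum. Slc18a2 (VMAT2) loads monoamines into synaptic vesicles, and Slc6a3 (DAT) takes released dopamine back up. D1-like receptors raise and D2-like receptors lower cyclic AMP in the receiving cell.

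The promoter windows of the members whose calls carry the results are given first, so that genes with matching calls can be compared. They are RefSeq windows of the GRCm38.p6 build, running from 250 bases before the annotated start site to 50 bases after it. All 9 member genes had a window, and Drd1 had a pair of them, of which the upstream one is shown. Capitals mark matches on either strand to TGACGTCA (the cAMP response element), GGGCGG (the GC box) or CCAAT (the CCAAT box). Th and Slc18a2, which were detected on nearly all arrays, come first. Slc6a3 and Drd1, which had identical calls, and Drd3, which was detected mainly in the WT cerebellum, follow.
Th, chr7:142899946-142900245, minus strand: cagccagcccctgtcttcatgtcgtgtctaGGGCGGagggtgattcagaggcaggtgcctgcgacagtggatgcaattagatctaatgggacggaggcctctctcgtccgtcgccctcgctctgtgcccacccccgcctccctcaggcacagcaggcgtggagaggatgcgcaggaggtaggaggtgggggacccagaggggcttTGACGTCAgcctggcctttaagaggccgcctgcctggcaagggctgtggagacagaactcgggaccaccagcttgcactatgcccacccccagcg
Slc18a2, chr19:59260628-59260927, plus strand: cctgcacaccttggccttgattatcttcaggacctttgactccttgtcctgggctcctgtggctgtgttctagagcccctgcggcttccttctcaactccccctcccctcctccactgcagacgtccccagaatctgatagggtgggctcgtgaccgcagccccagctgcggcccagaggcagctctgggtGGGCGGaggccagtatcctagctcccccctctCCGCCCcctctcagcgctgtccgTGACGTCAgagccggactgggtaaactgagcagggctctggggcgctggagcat
Slc6a3, chr13:73536497-73536796, plus strand: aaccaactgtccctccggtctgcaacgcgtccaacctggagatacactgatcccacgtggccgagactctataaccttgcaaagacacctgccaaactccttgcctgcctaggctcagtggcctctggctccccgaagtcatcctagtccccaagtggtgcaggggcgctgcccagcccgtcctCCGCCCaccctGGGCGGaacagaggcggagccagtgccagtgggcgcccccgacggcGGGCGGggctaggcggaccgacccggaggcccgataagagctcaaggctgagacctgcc
Drd1, chr13:54055609-54055908, minus strand: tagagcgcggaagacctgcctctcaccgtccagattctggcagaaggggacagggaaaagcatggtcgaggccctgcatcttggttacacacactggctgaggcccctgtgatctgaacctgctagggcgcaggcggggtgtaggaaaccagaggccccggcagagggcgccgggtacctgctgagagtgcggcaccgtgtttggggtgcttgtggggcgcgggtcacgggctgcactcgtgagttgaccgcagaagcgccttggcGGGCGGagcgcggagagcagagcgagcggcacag
Drd3, chr16:43761971-43762270, plus strand: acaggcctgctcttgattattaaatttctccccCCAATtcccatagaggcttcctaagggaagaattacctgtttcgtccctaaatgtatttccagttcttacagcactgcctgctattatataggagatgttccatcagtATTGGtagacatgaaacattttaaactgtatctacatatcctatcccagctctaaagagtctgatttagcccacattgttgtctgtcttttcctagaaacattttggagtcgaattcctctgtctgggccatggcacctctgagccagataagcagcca

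The windows differed in the matches they held. The cAMP response element was present in 1.79% of all 32851 windows and, among the members, in Th (first base 45 bases before the start site) and Slc18a2 (4 bases before it). The GC box was found in 35.7% of all windows and in 8 of the 10 member windows, the exceptions being Dbh and Drd3. Slc6a3 held 3 GC boxes and the Drd1 window shown held 1. The CCAAT box was found in 37.4% of all windows and in those of Dbh, Drd3 and Drd4, with 2 matches in Drd3. None of the 10 member windows held TATAAA (the TATA box, in 13.6% of all windows) or AAAGGTCA (the NBRE, in 1.51%). These matches are letters in a window and were not tested as binding sites.

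Across the 12 member probe sets, 1 was detected on all 16 arrays, 4 on none and 7 on some arrays only. The 7 are 58.3% of the members, against 24.99% of all probe sets. Of the 8 genes measured, 7 were detected on at least 1 array, the exception being Drd4. The number of member probe sets detected was 6 on 7 of the 8 Br arrays and 8 on the remaining one, WT male replicate 1. In Cb it was 5 and 7 on the WT female arrays, 4 and 2 on the WT male arrays, 3 and 4 on the KO female arrays, and 3 and 3 on the KO male arrays. Thus 7 of the 8 Cb arrays detected fewer members than any Br array, and WT female Cb replicate 2 lay within the Br range. As a share, 16.7% to 58.3% of the member probe sets were detected in Cb (median 29.2%) and 50% to 66.7% in Br (median 50%). Over all probe sets the share was 56.58% to 60.92% in Cb and 59.23% to 62.43% in Br.

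**Figure D1:**
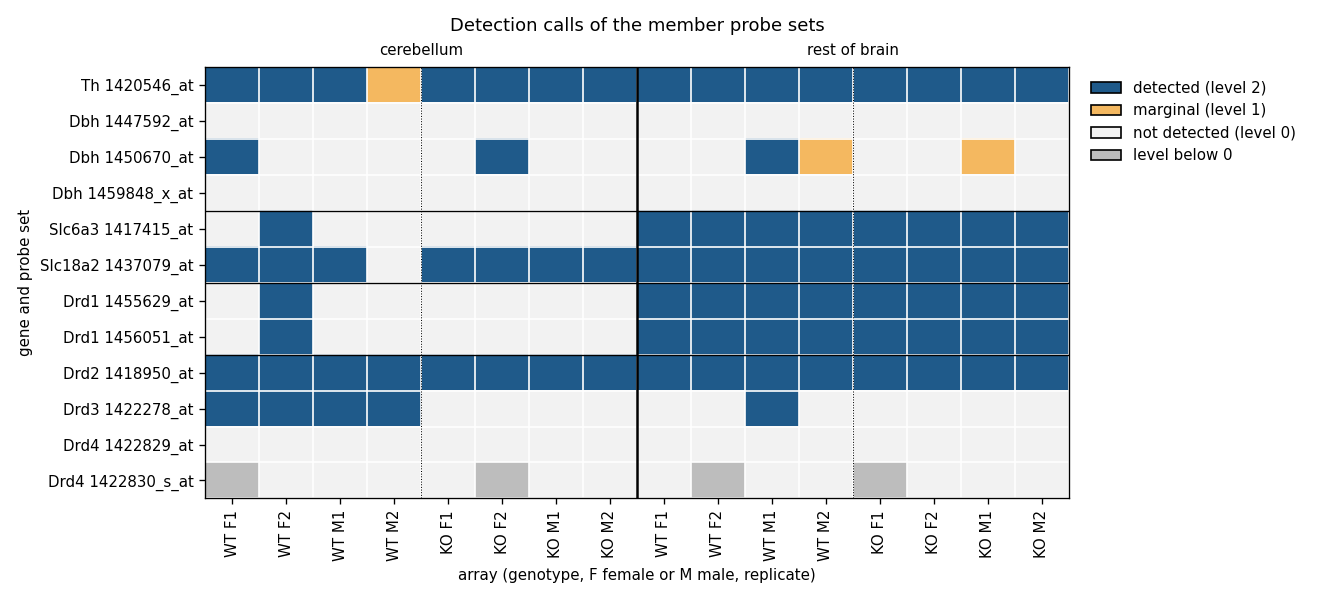
Detection calls of the 12 member probe sets (rows, ordered by role) on the 16 arrays (columns, Cb on the left and Br on the right, WT before KO in each). Blue marks detected, orange marginal, light grey not detected and dark grey a level below 0. Slc6a3 and both Drd1 probe sets share one pattern, all 8 Br arrays and 1 Cb array, while Drd3 is detected on the 4 WT Cb arrays and on 1 Br array.

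The enzymes of the pathway differed from each other. Th (probe set 1420546_at) was detected on 15 of the 16 arrays, on all 8 Br arrays and on 7 of the 8 Cb arrays. The exception was WT male Cb replicate 2, where the call was marginal. Detection of Th therefore did not separate the brain parts (difference of -12.5 percentage points, Cb minus Br, two-sided Fisher's exact test, p = 1.0) or the genotypes (8 of 8 KO and 7 of 8 WT arrays, exact p = 1.0). As background, some Purkinje cells of the cerebellum are known to carry Th transcripts.

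Dbh, the enzyme that defines noradrenaline cells, was found on few arrays. Its probe set 1450670_at was detected on WT female Cb replicate 1, KO female Cb replicate 2 and WT male Br replicate 1. It was marginal on WT male Br replicate 2 and KO male Br replicate 1, and not detected on the other 11. The other Dbh probe sets, 1447592_at and 1459848_x_at, were detected on 0 of 16 arrays, so the 3 probe sets of the gene disagree on the arrays where 1 of them was detected. The count was 2 of 8 in Cb and 1 of 8 in Br (exact p = 1.0), and the order turned to 2 of 8 against 3 of 8 once marginal calls were counted as detected. By genotype it was 1 of 8 KO and 2 of 8 WT arrays (exact p = 1.0).

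Dbh calls were set beside those of the noradrenaline transporter Slc6a2, which takes noradrenaline back up. All 4 of its probe sets were detected on some arrays only. Of these, 1460129_at was detected on 2 arrays only, WT female Cb replicate 1 and KO female Cb replicate 2, and its calls matched those of Dbh 1450670_at on 15 of 16 arrays. Most of that match is shared absence, as Dbh 1447592_at, detected on no array, matched on 13. Among 34946 probe sets of other genes, 12 matched on at least 15. The other Slc6a2 probe sets were detected on 12, 6 and 14 arrays, so Slc6a2 too was not uniform across its probe sets. The serotonin and hindbrain marker lists also moved on these arrays. Of 10 probe sets for Hox genes of the hindbrain and spinal cord, 30% were detected on WT female Cb replicate 1, 80% on KO female Cb replicate 1 and 70% on KO female Cb replicate 2, against 0% on the other 5 Cb arrays and 0% to 30% on the Br arrays. The Br array with a detected Dbh call, WT male replicate 1, had 30%, and the arrays with a marginal call, WT male Br replicate 2 and KO male Br replicate 1, had 20% and 10%. Dbh was not detected on KO female Cb replicate 1, which had the highest share, or on KO male Br replicate 2, which had 30%. The part of these genes in the Dbh calls was not tested. The 2 raphe serotonin neuron markers with a probe set, Tph2 and Slc6a4, were both detected on the 2 KO female Cb arrays, and Tph2 alone on WT female Cb replicate 1.

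The transporters divided in the same manner as the enzymes, with one found nearly everywhere. Slc18a2 (1437079_at) was detected on 15 of 16 arrays, on all 8 Br arrays and on 7 of 8 Cb arrays. The array without it, WT male Cb replicate 2, was also the one with the marginal Th call. As for Th, the exact p of 1.0 between the brain parts and between the genotypes is the only value possible with 15 detected arrays. Slc18a2 is not particular to catecholamine cells, since serotonin and histamine neurons use it too.

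Slc6a3, in contrast, is a defining marker of dopamine neurons. Its probe set 1417415_at was detected on all 8 Br arrays, 4 WT and 4 KO. In Cb it was not detected on WT female replicate 1, either WT male array or any of the 4 KO arrays, and was detected on WT female replicate 2. The groups thus overlapped through 1 array, with detection on 1 of 8 Cb and 8 of 8 Br arrays, a difference of -87.5 percentage points, Cb minus Br (two-sided Fisher's exact test, p = 0.0014, n = 8 and 8).

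Drd1, the one D1-like receptor measured, had the same calls. Both of its probe sets, 1455629_at and 1456051_at, were detected on all 8 Br arrays and, in Cb, on WT female replicate 2 alone, so they matched each other and Slc6a3 on 16 of 16 arrays. Drd1 is the main receptor of the striatal neurons of the direct pathway, whereas Slc6a3 RNA is made by the midbrain neurons that project to them. The exact p was likewise 0.0014 for each Drd1 probe set. No marginal call was seen for Slc6a3 or Drd1 on any array.

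**Figure D2:**
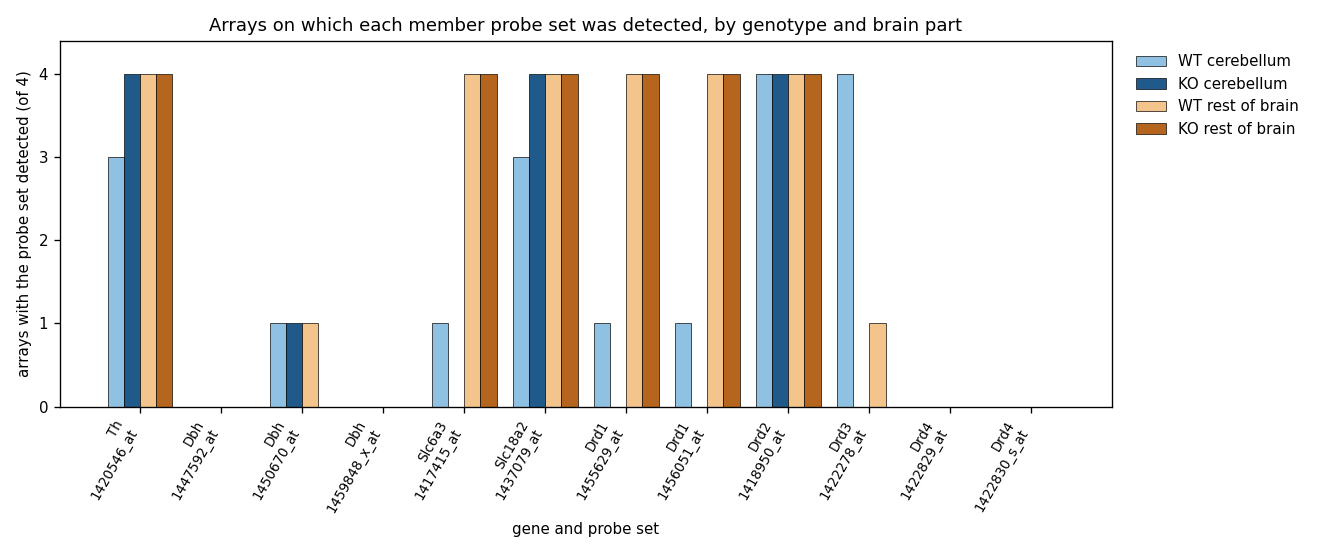
Number of arrays, of 4, on which each member probe set was detected (vertical axis) in WT cerebellum, KO cerebellum, WT rest of brain and KO rest of brain (bars). Slc6a3 and Drd1 reach 4 of 4 in both Br groups, 1 of 4 in WT Cb and 0 of 4 in KO Cb, while Drd3 reaches 4 of 4 in WT Cb, 1 of 4 in WT Br and 0 of 4 in both KO groups.

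The difference between the brain parts was then read from the run over the whole table. With Fisher's exact test on all 45101 probe sets and Benjamini-Hochberg adjustment, 0 probe sets (0.0%) passed an adjusted p of 0.05. Before adjustment, 1247 had a p under 0.05. This 0 lay close to the threshold and does not show that the brain parts were alike. When each of the 16 arrays was left out in turn, the same run called 144 to 257 probe sets, whichever array it was. With all arrays kept, the adjusted p of Slc6a3 and of both Drd1 probe sets was 0.16 by Fisher's exact test. An exact test stratified by genotype and sex and a paired exact test (McNemar) also called 0 over all probe sets, but neither can reach a call there. The run was then limited to the 3873 probe sets whose number of detected arrays, whatever the grouping, lets Fisher's exact test reach 0.05. Of these 3873, 662 (17.1%) were called, and 447 (11.5% of the 3873) were called as less often detected in Cb. Of the 4 member probe sets in that run, Slc6a3 and both Drd1 probe sets were called, with an adjusted p of 0.014 each by Fisher's exact test. The remaining one was Drd3, and the other 8 member probe sets could not be called at any grouping.

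Whether the 3 were called over all probe sets, rather than in the limited run, depended on 1 array. WT female Cb replicate 2 was the array on which Slc6a3 and Drd1 were detected in Cb. It also differed from the 7 other Cb arrays in its cerebellar markers, with 76.9% of the granule cell and 66.7% of the Purkinje cell probe sets detected on it against 100% on each of the others. Its striatal share was 69.2%, equal to that of WT male Cb replicate 1, against 46.2% to 61.5% on the other 6 Cb arrays and 76.9% to 84.6% in Br. Of the midbrain and thalamus probe sets, 57.1% were detected on it, against 35.7% to 50% on the other Cb arrays and 57.1% to 64.3% in Br. Of the cortex and hippocampus probe sets, 25% were detected on it, as on every other Cb array, against 75% on each Br array. Neurod6 of that list was detected on all 16 arrays, and Tbr1 and Emx1 on no Cb array. Of the pituitary probe sets 87.5% were detected on it, against 12.5% to 75% on the other Cb arrays. The part of these in the Slc6a3 and Drd1 calls was not tested. Without this array, Slc6a3 and both Drd1 probe sets were detected on 0 of 7 Cb and 8 of 8 Br arrays, with an adjusted p of 0.027 over all probe sets by Fisher's exact test. These same calls singled the array out, so the full division and its p follow from leaving it out and are no support. Without this array and WT female Br replicate 2, the 3 likewise divided fully (-100 points, Fisher's exact p = 0.00058). That is the smallest p the remaining arrays can give, yet the adjusted p was 0.098 and 0 probe sets were called. With the Cb array alone left out, the 3 were among 170 probe sets (0.377%) detected on every Br array and on no Cb array. With it, 115 probe sets (0.255%) were detected on 8 of 8 Br and 0 of 8 Cb arrays, and no member was among them.

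**Figure D3:**
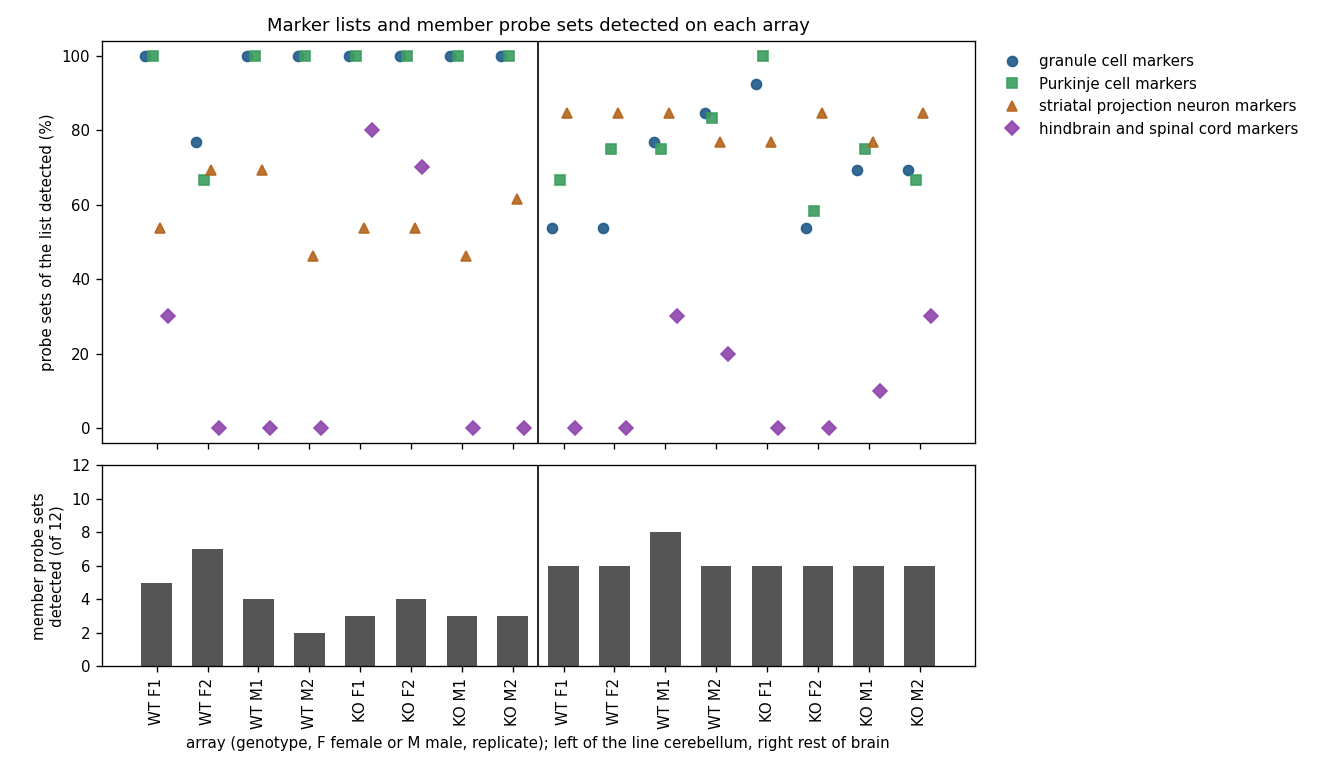
Upper plot, percent of the probe sets of 4 marker lists detected on each array (granule cell, Purkinje cell, striatal projection neuron, and hindbrain and spinal cord), with the points of an array set slightly apart sideways. Lower plot, number of the 12 member probe sets detected on the same arrays, Cb left of the line and Br right. WT female Cb replicate 2 has 76.9% of the granule and 66.7% of the Purkinje probe sets and detects 7 members, and the hindbrain share reaches 80% on KO female Cb replicate 1, which detects 3.

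Within each genotype, sex and brain part the values were as follows. Among the KO arrays, Slc6a3 and both Drd1 probe sets were detected on 4 of 4 Br and 0 of 4 Cb arrays, 3 members among 377 such probe sets (0.836%). The exact p was 0.029, the smallest that 4 against 4 arrays can give. Among the WT arrays they were detected on 4 of 4 Br and 1 of 4 Cb arrays (exact p = 0.14), and no member was among the 196 probe sets (0.435%) that divided fully. Among males the counts were 4 of 4 and 0 of 4, 3 members among 382 such probe sets (0.847%). Among females they were 4 of 4 and 1 of 4, and no member was among the 268 (0.594%). The p-values of these comparisons of 4 against 4 arrays were all 1.0 after adjustment over all probe sets, by Fisher's exact test.

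The D2-like receptors each had a different pattern. Drd2 (1418950_at), the receptor of striatal neurons of the indirect pathway and the autoreceptor of dopamine neurons, was detected on all 16 arrays, so its calls carry no contrast. It was detected in Cb on all 7 arrays that lacked Drd1. Drd4 was not detected on any array. Its probe set 1422829_at was at level 0 throughout, and 1422830_s_at was at level 0 on 12 arrays and below 0 on the other 4 (WT female Cb replicate 1, KO female Cb replicate 2, WT female Br replicate 2 and KO female Br replicate 1).

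Drd3 (1422278_at), a receptor known from the islands of Calleja and the nucleus accumbens and, in the cerebellum, from Purkinje cells of its last lobules, was the one member whose calls divided by genotype. In Cb it was detected on both WT female and both WT male arrays and on none of the 2 KO female and 2 KO male arrays. In Br it was detected on WT male replicate 1 and on none of the other 7 arrays. No call of Drd3 was marginal. The genotypes did not overlap in Cb, 4 of 4 WT against 0 of 4 KO arrays, and they overlapped in Br, 1 of 4 against 0 of 4.

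The exact p of the Cb comparison was 0.029, the smallest that 4 against 4 arrays allow, with an adjusted p of 1.0 over all probe sets by Fisher's exact test. Over the whole table, 13 probe sets (0.0288%) were detected on all 4 WT and none of the KO Cb arrays, Drd3 among them. This count covers only the direction seen for Drd3, so it is not on the same footing as the Br count below. The pattern was present in each sex, where 2 against 2 arrays cannot give an exact p below 0.333. Drd3 was 1 of 320 probe sets (0.71%) detected on both WT and no KO array in female Cb and 1 of 357 (0.792%) in male Cb. In Br, 9 probe sets (0.02%) divided fully by genotype in either direction, and no member did.

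Over both brain parts Drd3 was detected on 0 of 8 KO and 5 of 8 WT arrays (Fisher's exact p = 0.026). This p counts Cb and Br arrays as independent, which they may not be. The adjusted p over all probe sets was 1.0. In that run 0 probe sets were called (0.0%) by Fisher's exact test, 38 had an unadjusted p under 0.05, and the run limited to 3873 probe sets also called 0. The KO minus WT difference in Cb less that in Br was -75 percentage points, with p = 0.14 by exact permutation of the genotype labels within each brain part (two-sided, 4900 arrangements). With 4 detected Cb arrays and 1 detected Br array, that is the smallest p this test can give, so it cannot tell whether the genotype difference differed between the brain parts. Between the brain parts Drd3 was detected on 4 of 8 Cb and 1 of 8 Br arrays (exact p = 0.28), and among WT arrays on 4 of 4 and 1 of 4 (exact p = 0.14). The Purkinje cell list was detected at 100% on all 4 KO Cb arrays, where Drd3 was not detected, and on 3 of the 4 WT Cb arrays. Of its 12 probe sets, 7 were detected on all 16 arrays, Br included, so these shares say little of cell number. On WT male Br replicate 1, the Br array with Drd3, 75% of the Purkinje and 76.9% of the granule cell probe sets were detected, within the 58.3% to 100% and 53.8% to 92.3% of the Br arrays. The part of these cell types in the Drd3 calls was not tested.

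None of the other members divided by genotype. In Cb the counts in KO and WT were 4 and 3 of 4 for Th and for Slc18a2, 1 and 1 for Dbh 1450670_at, 0 and 1 for Slc6a3 and for both Drd1 probe sets, and 4 and 4 for Drd2 (exact p = 1.0 for each). In Br the KO and WT counts were equal for each member probe set except Dbh 1450670_at and Drd3, each at 0 of 4 and 1 of 4. As a share of the 12 member probe sets, the KO minus WT difference was -10.4 percentage points in Cb and -4.17 in Br, beside a pooled SD of 7.51 points within the 8 groups. Without WT female Cb replicate 2 it was -3.47 points in Cb, as that array alone gave the WT calls of Slc6a3 and Drd1 there.

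By sex, no member probe set was detected on all arrays of one sex and none of the other. In Cb, Dbh 1450670_at was detected on 2 of 4 female and 0 of 4 male arrays (exact p = 0.43), and Drd3 on 2 of 4 in each sex. Th and Slc18a2 were detected on 4 of 4 female and 3 of 4 male Cb arrays, where the exact p of 1.0 is the only value possible.

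Probe sets of other genes with the most similar calls were then named for each member, by the number of the 16 arrays on which detection agreed. For Slc6a3 and Drd1, 46 of 34946 probe sets of other genes with a single symbol agreed on 16 of 16 arrays, and the first in order were A330009N23Rik, Akap5 and Bcl11a. Akap5 encodes an anchoring protein of protein kinase A at synapses and Bcl11a a transcription factor of forebrain neurons. For Dbh only Tmigd1 agreed on 16 arrays. For Drd3 the best match was 14 of 16, reached by 11 probe sets including those of Thbs1, Cyhr1 and Fgr. For Th and for Slc18a2, 56 probe sets had identical calls, among them those of Cdiptos, Ctsc and Cul9 for Th and of Acvr2b for Slc18a2. With 16 calls a match is easily shared, and it says nothing of a common function.

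Other genes of the catecholamine pathway were described from lists by role. Of the 13 probe sets of synthesis and cofactor genes, 7 were detected on all 16 arrays, 4 on none and 2 on some. Ddc, which makes dopamine, and Gch1, Pts, Spr, Qdpr and Pcbd1, which make or recycle the tetrahydrobiopterin cofactor of Th, each had a probe set on all 16 arrays. Other probe sets of Ddc, Gch1 and Pts disagreed. Ddc 1430591_at was detected on none. Gch1 1420499_at was detected on 3 of 4 KO Cb, 1 of 4 KO Br and no WT arrays (Fisher's exact p = 0.077, the smallest its number of detected arrays allows). Pts 1458402_at was detected on 3 of 4 WT Cb, 0 of 4 KO Cb and 2 of 4 arrays of each Br group. Pnmt, which makes adrenaline, was detected on none with any of its 3 probe sets. The breakdown enzymes Maoa and Maob were detected on all 16 arrays with all 3 of their probe sets.

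Of the adrenergic receptors, Adra1b and Adra2c had probe sets with a single symbol. Adra2c 1435296_at was detected on all 8 Br arrays and in Cb on WT male replicate 2 alone, the same counts as Slc6a3 and Drd1 but through another array (exact p = 0.0014, adjusted p of 0.014 in the limited run). Its other variable probe set, 1457328_at, was detected on 2 Cb arrays and no Br array. Adra1b 1422183_a_at was detected on 0 of 8 Cb and 5 of 8 Br arrays (exact p = 0.026, adjusted p of 0.094 in the limited run). Slc18a1, the vesicular transporter of adrenal cells, was detected on 1 array, KO male Br replicate 1.

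Among the transcription factors of catecholamine neurons, the dopamine neuron factors Pitx3, Lmx1a and Lmx1b were detected on 0 of 16 arrays, also on the Br arrays where Slc6a3 was detected. Of the 6 probe sets of Nr4a2, a factor that dopamine neurons need, 3 were detected on all 16 arrays, 1 on 15 and 2 on none. En1 was detected on 6 Cb and 3 Br arrays and Phox2a, a noradrenaline neuron factor, on 2 and 2. Over the list 4 of 15 probe sets were detected on all arrays, 6 on none and 5 on some, and none was called between the brain parts.

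Of the 23 probe sets for dopamine receptor signalling, 10 were detected on all arrays, 4 on none and 9 on some, 7 of these on more Br than Cb arrays. Pde10a, a striatal phosphodiesterase, was called in the limited run with 2 probe sets, both detected on all 8 Br arrays. In Cb, 1419389_at was detected on WT male replicate 1, and 1432490_a_at on that array and on WT female replicate 2 (adjusted p of 0.014 and 0.041, Fisher's exact test). The second matched Slc6a3 and Drd1 on 15 of 16 arrays. The probe sets of Pde10a disagreed, since 1439618_at and 1458499_at were detected on all 16 arrays, and 1419390_at was detected on 1 Br array. Ppp1r1b (DARPP-32), the main target of Drd1 signalling in the striatum, was detected on all 16 arrays. Gnal, the G protein subunit that couples Drd1, ran the other way with 1446359_at, on 8 Cb and 4 Br arrays (exact p = 0.077), and its other probe sets did not differ. Pde10a, Ppp1r1b and Rgs9 also stand in the striatal marker list, of which 6 of 13 probe sets were detected on some arrays, all 6 on more Br than Cb arrays.

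**Figure D4:**
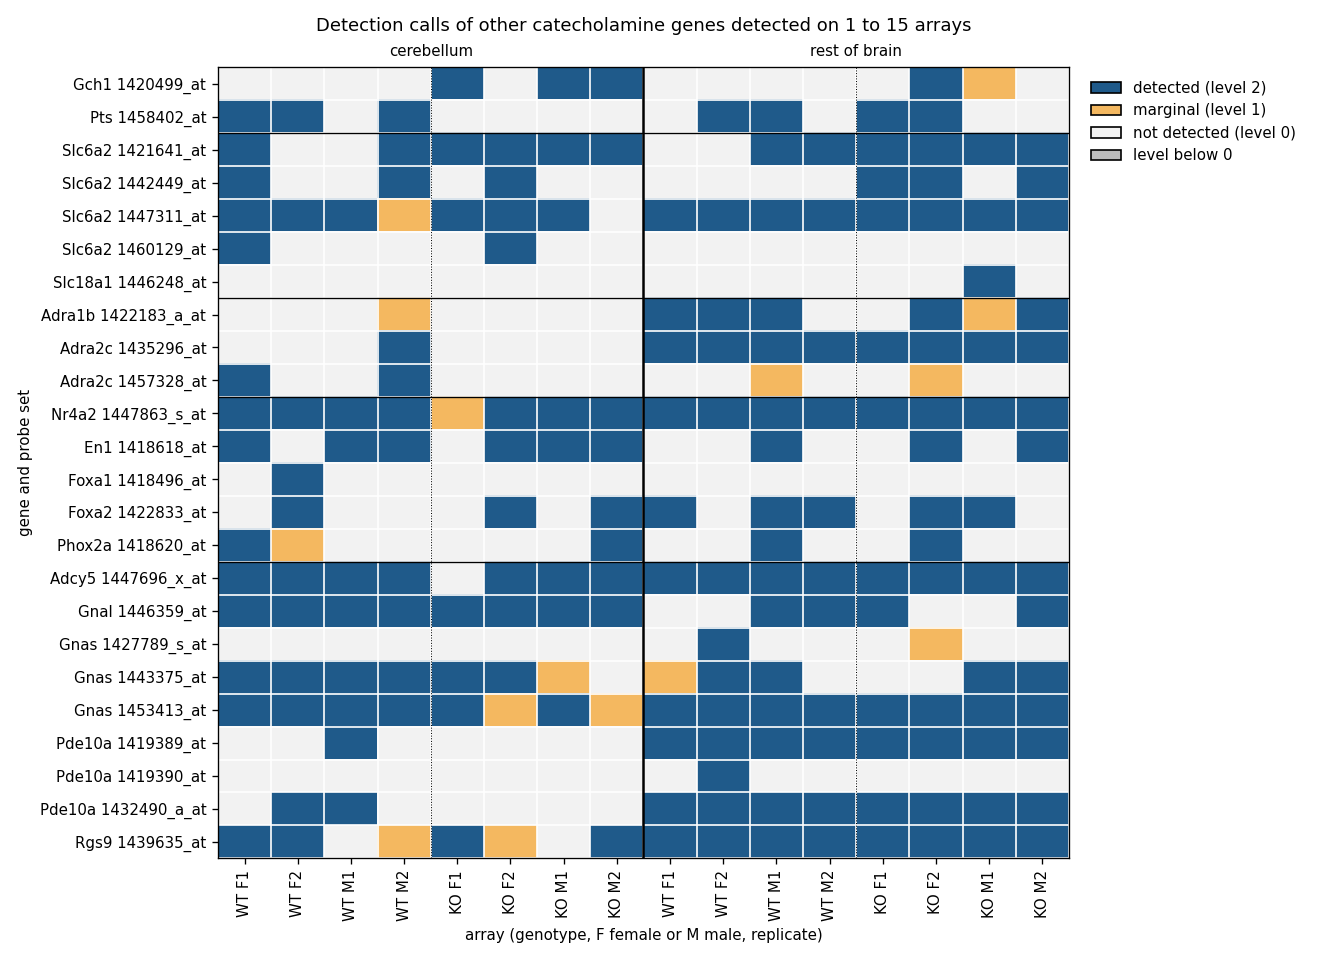
Detection calls of the probe sets of other catecholamine genes that were detected on 1 to 15 arrays (rows, grouped by list), on the 16 arrays (columns, Cb left and Br right), with the same colours as the map of member calls. Adra2c 1435296_at and Pde10a 1419389_at are detected on all 8 Br arrays and on 1 Cb array each, and Slc6a2 1460129_at on 2 female Cb arrays alone.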

How the data were processed

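RNA of 16 dissected specimens was labelled and hybridised to Affymetrix 3′ expression arrays. Per the methods and the labels, the authors used the MAS5 algorithm, and the results of the study also name RMA. The methods name a human array, whereas the probe sets are those of a mouse array. The deposited values are a score with 5 distinct numbers, read here as levels 2, 1, 0, -1 and -2, with a value above 5e-38 counted as detected. Neither the authors nor the labels state what the levels mean. Signal over background, and so the precision behind a call, is unknown, and the number of arrays limits what can be resolved.

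Gene symbols came from the platform annotation (34958 probe sets with 1 symbol, 932 with several, 9211 unnamed here), and promoter windows from RefSeq. Each probe set was tested with a two-sided Fisher's exact test of detected against not detected arrays, adjusted by Benjamini-Hochberg over all 45101 probe sets at 0.05. Alternatives were a run limited to the 3873 probe sets on which the exact test can reach 0.05, stratified and paired exact tests, other readings of the levels, leaving out probe sets that may cross-hybridise, genes in place of probe sets, and leaving out each array. Tests within one genotype, brain part or sex, and the stratified and paired tests limited to those probe sets, were added after seeing the data. Members, lists and tests were chosen with earlier results of these data known. The genes named were all member probe sets, the 3 probe sets of other genes with the most similar calls (fewer are printed for Dbh and Slc18a2), listed genes that were called, and up to 4 examples of each list, with a few more named after their values were seen. The tests were checked on simulated calls. Columns were matched to samples by accession, and no column was left out. Python 3.11.15, SciPy 1.17.1, NumPy 2.4.6, pandas 2.3.3 and matplotlib 3.10.9 were used.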

Additional observations from a re-analysis of the deposited data

Results flagged for a closer look

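In 7 of 26 sets of 8 arrays examined, 1 array stood apart from the other 7 of its brain part, with a gap to the nearest of the others equal to the whole range of levels (ratio of 1.0). Calls that take few values make a ratio of 1.0 easy to reach, since 1 array that differs from 7 alike always gives it. The rate of such flags by chance is not known here, so 7 of 26 is not read as an excess. WT male Cb replicate 2 stood apart for Th (marginal, ratio 1.0) and for Slc18a2 (not detected, ratio 1.0), where the other 7 Cb arrays were all detected. WT female Cb replicate 2 stood apart for Slc6a3, Drd1 1455629_at and Drd1 1456051_at (ratio 1.0 for each), as the one Cb array with a detected call. WT male Br replicate 1 stood apart for Drd3 (ratio 1.0), the one detected call among the Br arrays, and for the number of member probe sets detected, 8 against 6 on the other 7 Br arrays (ratio 1.0).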

How the results depend on the processing

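Calls between the brain parts depended on which probe sets and arrays were tested. The number of probe sets called was 0 over all of them, 113 without probe sets that may cross-hybridise and 61 with genes in place of probe sets. It was 662 in the limited run, 393 in the limited stratified run, and 144 to 257 with 1 array left out, whichever array it was. The number of member probe sets called was 0 over all probe sets, 3 in the limited run, 3 in the limited stratified run, and 0 to 3 with 1 array left out. The 3 appeared when WT female Cb replicate 2 was left out. It is the one Cb array on which they were detected, so leaving it out by itself makes them divide fully. Without that array and its Br counterpart, 0 members and 0 probe sets were called (adjusted p of 0.0977 for Slc6a3 and both Drd1 probe sets, Fisher's exact test). In that setting the 3 divided fully, at the smallest unadjusted p that its arrays can give. Member probe sets on all Br and no Cb arrays numbered 0, 0 to 3 with 1 array left out, and 3 without that pair of arrays. The difference in the share of members detected ranged from -23.5 to -17.6 points between the brain parts, and KO minus WT from -17.4 to -3.47 in Cb and from -5.56 to 0.0 in Br, when 1 array was left out. For KO against WT, the probe sets and members called numbered 0 under all alternatives run, and members without overlap 1 in Cb (Drd3) and 0 in Br. The direction of Dbh 1450670_at between the brain parts reversed from 12.5 to -12.5 points with marginal calls counted as detected and to -25 points among male arrays only. The cause was not tested. Of the differences for single members, 336 kept their direction and side of the threshold, 250 were 0 both times, 27 became 0 under the alternative without crossing it, 9 passed it only under an alternative and 2 reversed. Over all probe sets, deviations of arrays with the same replicate number had correlations of -0.0181 to 0.0647 over 8 pairs of groups. The number was not taken as a pairing in the main test, but these correlations cannot tell whether such arrays share an animal. The pituitary probe set Gh 1437522_x_at was detected on both the Cb and the Br array of WT female replicate 2, WT male replicate 2 and KO male replicate 1. Otherwise it was detected only on KO female Cb replicate 1. Pomc and Tshb did not share this pattern. With the replicate block, the paired exact test called 0 probe sets and 0 members, also when limited, and its smallest p of 0.00781 cannot pass over all probe sets. Nor can the smallest of 0.00154 of the stratified test. Calls carry no amounts, so differences in level between arrays that all detect a gene (Drd2, and nearly all for Th and Slc18a2) could not be resolved.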
